A study of Mus musculus with 8 samples.

Results

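DNA methylation was compared between the epithelium of the mouse embryonic small intestine at E14.5 and at E12.5, in embryonic days. The comparison used 4 of the 8 libraries of the study, 2 biological replicates per stage, and took every called peak on the 19 autosomes. Both stages came from mice of a mixed C57BL/6 CD1 strain and were sorted as living EpCAM+ cells without CD31, an endothelial marker, or CD45, a leukocyte marker. No genotype, sex or number of pooled embryos is given in the sources used here. The other 4 libraries, Lgr5-EGFP-high intestinal stem cells (ISC) and enterocytes of adult Lgr5EGFP-Cre-ERT males at postnatal day 60, served only to look up embryonic regions later in life. Peaks were not assigned to genes here, so the sorted cell type was not checked against marker loci.

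A region was called stage-only when both libraries of a stage had a peak in it and neither library of the other stage did. Each list was first cut to its 84990 highest-scoring peaks, the length of the shortest list, and overlapping peaks were merged. This gave 20740 stage-only regions of 189207 autosomal regions in all.

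Methyl groups on CpG sites are copied at each cell division by the maintenance enzyme Dnmt1 and added at new sites by Dnmt3a and Dnmt3b, while the Tet enzymes start their removal. Most of the mammalian genome is methylated outside CpG islands, and changes during differentiation are concentrated at enhancers and island shores. Around these stages the simple epithelial tube of the gut begins to form villi. MBD sequencing pulls down fragments by their density of methylated CpGs, so a peak marks a stretch of densely methylated DNA and gives no percent methylation.

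The libraries of the stages differed in enrichment. The E12.5 libraries had 55237390 and 55442400 tags and the E14.5 libraries 34567645 and 34889223, but peaks held 9.84% and 7.46% of the tags at E12.5 and 37.7% and 29.9% at E14.5. The caller estimated fragment sizes of 115 and 102 bp at E12.5 and of 97 and 57 bp at E14.5. After the cut, the lowest score kept (the caller's p-value on a scaled negative log10 axis) was 54.51 and 50 at E12.5 and 113.35 and 115.82 at E14.5. The highest score left out was equal to it in the 3 lists that were cut. An E14.5 peak therefore had to score higher than an E12.5 peak to stay in the list. A missing peak means only that no peak was called or kept, not that tags were absent, and the smallest peaks held 12 to 21 tags in these libraries.

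At E14.5, 46025 regions were called in both libraries, and at E12.5, 33823. Both stages shared 16371 of these, 8.65% of all regions. E14.5-only regions numbered 12516, 6.61% of all regions and 27.2% of those called in both E14.5 libraries. E12.5-only regions numbered 8224, 4.35% of all regions and 24.3% of those called in both E12.5 libraries. Each stage thus had a similar fraction of its own regions to itself, and the E14.5-only class was 1.52 times as large. Of the 20740 regions, 60.3% were E14.5-only. Without the cut, 119340 regions (27.4% of 435954) were E14.5-only and 1386 (0.318%) were E12.5-only, and the E14.5 share was 98.9%. With 2 libraries per stage, the smallest two-sided p that an exact permutation test allows is 0.33, so the counts are given without a test.

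Replicates of E14.5 resembled each other more than replicates of E12.5 did. In the lists of equal length, the E14.5 replicates had 46025 regions in common, 37.9% of the regions called in either. The E12.5 replicates had 33823 in common, 25.1% of the regions called in either. Each E12.5 library overlapped E14.5 replicate 1 more than its own replicate, with 38751 shared regions (29.9%) for E12.5 replicate 1 and 36183 (27.4%) for E12.5 replicate 2. The overlaps with E14.5 replicate 2 were 25.7% and 24.5%. The stages were therefore not set apart beyond the spread between the E12.5 replicates. When 1 library of each stage was compared, a choice made after seeing the data, the E14.5-only share was 49.6% to 50.05% over the 4 pairs. Lists of one length fix that value near balance. With 1 library left out of a single stage the share was 35.4% to 73.2%, since that stage then needed 1 call and not 2.

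Among regions called in both libraries of a stage, the weaker ones were more often stage-only. Strength is the score by which the lists were cut, so this order can follow in part from the cut. Of E14.5-only regions, 17.8% and 24.2% were in the top 25% of the peaks of E14.5 replicates 1 and 2. Of E12.5-only regions, 19.5% and 21.6% were in the top 25% of the peaks of E12.5 replicates 1 and 2. Regions called in both libraries of a stage were placed in 10 equal classes by the lower of the 2 percentiles of their best peak's score. In the lists of equal length, E14.5-only regions made up 43.8% of the weakest class of E14.5 regions and 5.19% of the strongest. For E12.5 the figures were 41.0% and 4.32%, and the curves of the stages ran within a few points of each other in every class. With full lists the curves were far apart, at 77.5% and 14.7% for E14.5 and at 8.04% and 0.405% for E12.5. In the strongest E12.5 class with full lists, 15 of 3707 regions lacked an E14.5 peak, while in the strongest E14.5 class 3134 of 21301 lacked an E12.5 peak.

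**Figure D1:**
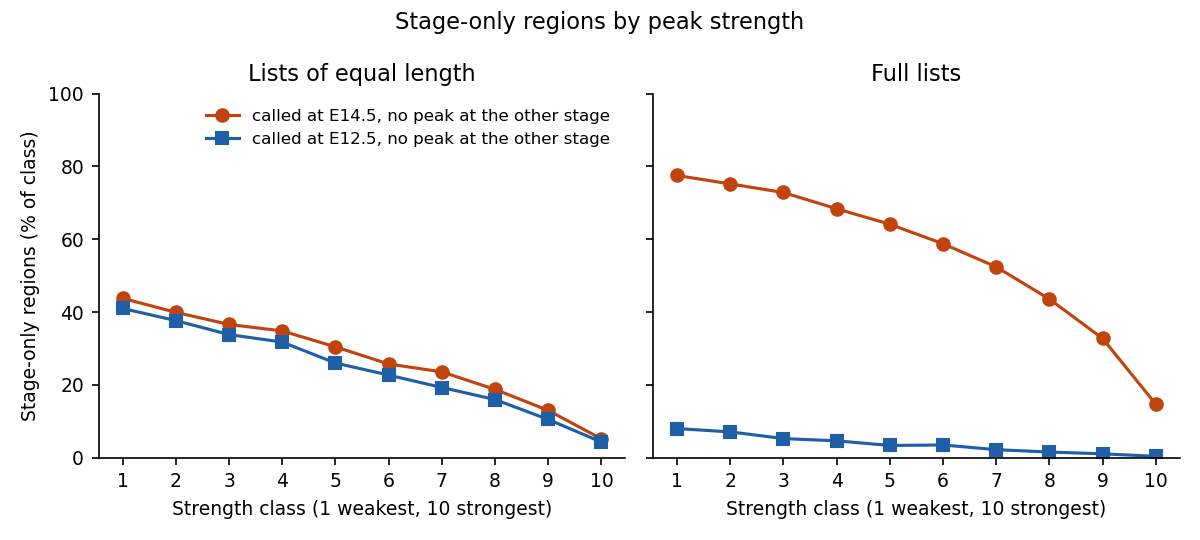
Percent of regions called in both libraries of a stage that had no peak in either library of the other stage (y axis), by strength class from 1 (weakest) to 10 (strongest, x axis), for E14.5 (circles) and E12.5 (squares), with lists of equal length on the left and full lists on the right. With equal lists the curves fall together, from 43.8% and 41.0% to 5.19% and 4.32%, and with full lists E14.5 lies above E12.5 in every class.

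Regions found at a single stage were also narrower than shared ones. The median width was 579 bp (quartiles 489 and 730) for E14.5-only regions, 653 bp (553 and 819) for E12.5-only regions and 917 bp (731 and 1192.5) for regions called at both stages. Width follows in part from the merge, because a region that joins 4 peaks can only be as wide as or wider than each of them. Single peaks showed the same order within each library. E14.5-only regions had median peak lengths of 575 and 378 bp in E14.5 replicates 1 and 2, against 786 and 491 bp at shared regions. E12.5-only regions had 601 and 502 bp in the E12.5 replicates, against 729 and 607 bp at shared regions. The gap between the E14.5 replicates was larger than that between the stages, and E14.5 replicate 2, with the shortest peaks, was also the library with the smallest estimated fragment size. Its part in the widths was not tested.

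Wide stage-only regions were rare in both directions. Of regions up to 500 bp wide, 76.0% of the E14.5 and 71.7% of the E12.5 ones were stage-only. Above 2000 bp, 38 of 649 E14.5 regions (5.86%) and 14 of 604 E12.5 regions (2.32%) were. The widest E14.5-only region away from pile-ups was chr3:137727487-137732300 on mm9, 4814 bp with 476 and 376 tags at E14.5, and an adult peak in all 4 adult libraries (146 to 566 tags). The widest E12.5-only region, chr1:75546847-75550420, spanned 3574 bp with 202 and 146 tags at E12.5. Its class came from the cut, because the full E14.5 lists held peaks there with 209 and 146 tags that fell below it. The E14.5 libraries had fewer tags in all. Relative to the total tags of each library, the region was higher in both E14.5 libraries than in either E12.5 library. The caller's ratio of a peak's tags to those around it was 3.14 and 3.93 at E14.5, against 2.24 and 2.86 at E12.5. This region is therefore no example of signal lost by E14.5.

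**Figure D2:**
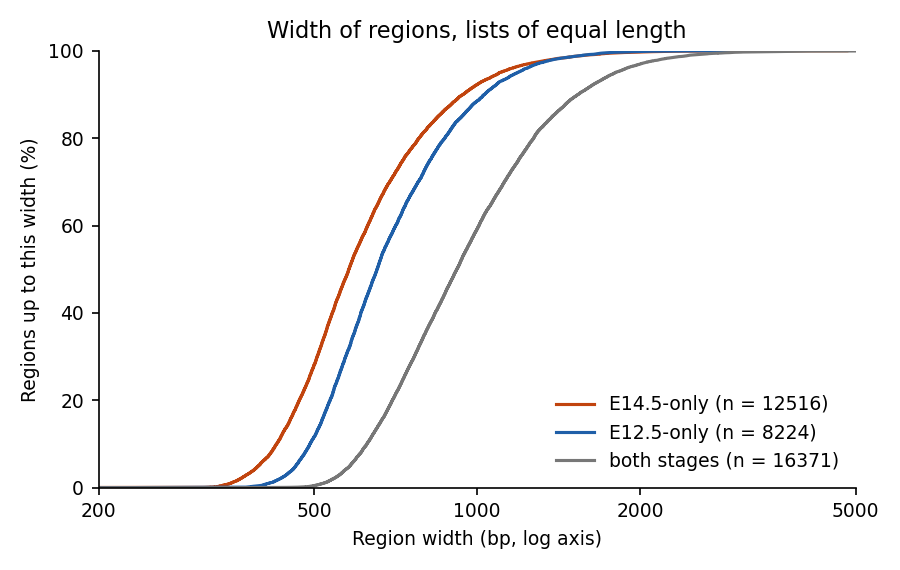
Cumulative percent of regions (y axis) up to a given width in bp (x axis, log scale) for E14.5-only, E12.5-only and shared regions in lists of equal length. The E14.5-only curve lies leftmost with a median of 579 bp, followed by E12.5-only at 653 bp and shared regions at 917 bp.

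The strongest E14.5-only regions were named among those with no E12.5 call at all, so that absence is part of the choice. The regions named are the 10 per direction that ranked highest by the lower score percentile, had no peak of the other stage in the full lists either and lay over 20 kb from any pile-up of more than 500 tags. For E14.5 they were drawn from 11097 regions and had between 69 and 193 tags per E14.5 library. The first, chr6:48387755-48389349, held 169 and 193 tags at E14.5, and the nearest E12.5 peak lay 1890 bp away, with 32 tags in E12.5 replicate 2. The second, chr6:139813354-139814540, held 135 and 108 tags.

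Several of the others stood far from any E12.5 peak. At chr5:109203226-109204315, with 93 and 73 tags at E14.5, the nearest E12.5 peak was 67652 bp away. At chr15:57122421-57123545, with 102 and 91 tags, it was 39954 bp away. At both, the E14.5 call was far from any E12.5 peak border. The regions chr13:73502890-73503561 (78 and 69 tags) and chr15:82300654-82301557 (86 and 82 tags) were 10845 and 10605 bp from an E12.5 peak. The remaining 4 were chr6:71083425-71084406, chr5:8912514-8914011, chr7:106497080-106497964 and chr2:160377639-160378515, with 84 to 140 tags at E14.5 and an E12.5 peak 4473 to 9707 bp away.

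Nearly all of these E14.5 regions also had adult peaks. Of the 10, 9 were called in all 4 adult libraries. The region on chromosome 7 was called in 3 and had no peak in enterocyte replicate 2. Of all E14.5-only regions, 62.9% were in all 4 full adult lists and 1.39% in none. The 10 were chosen for high scores, and strong E14.5-only regions had adult peaks more often than weak ones. At chr5:8912514-8914011 the ISC libraries held 34 and 88 tags and the enterocyte libraries 173 and 158, so the lower ISC replicate stood apart from the other adult libraries.

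**Figure D3:**
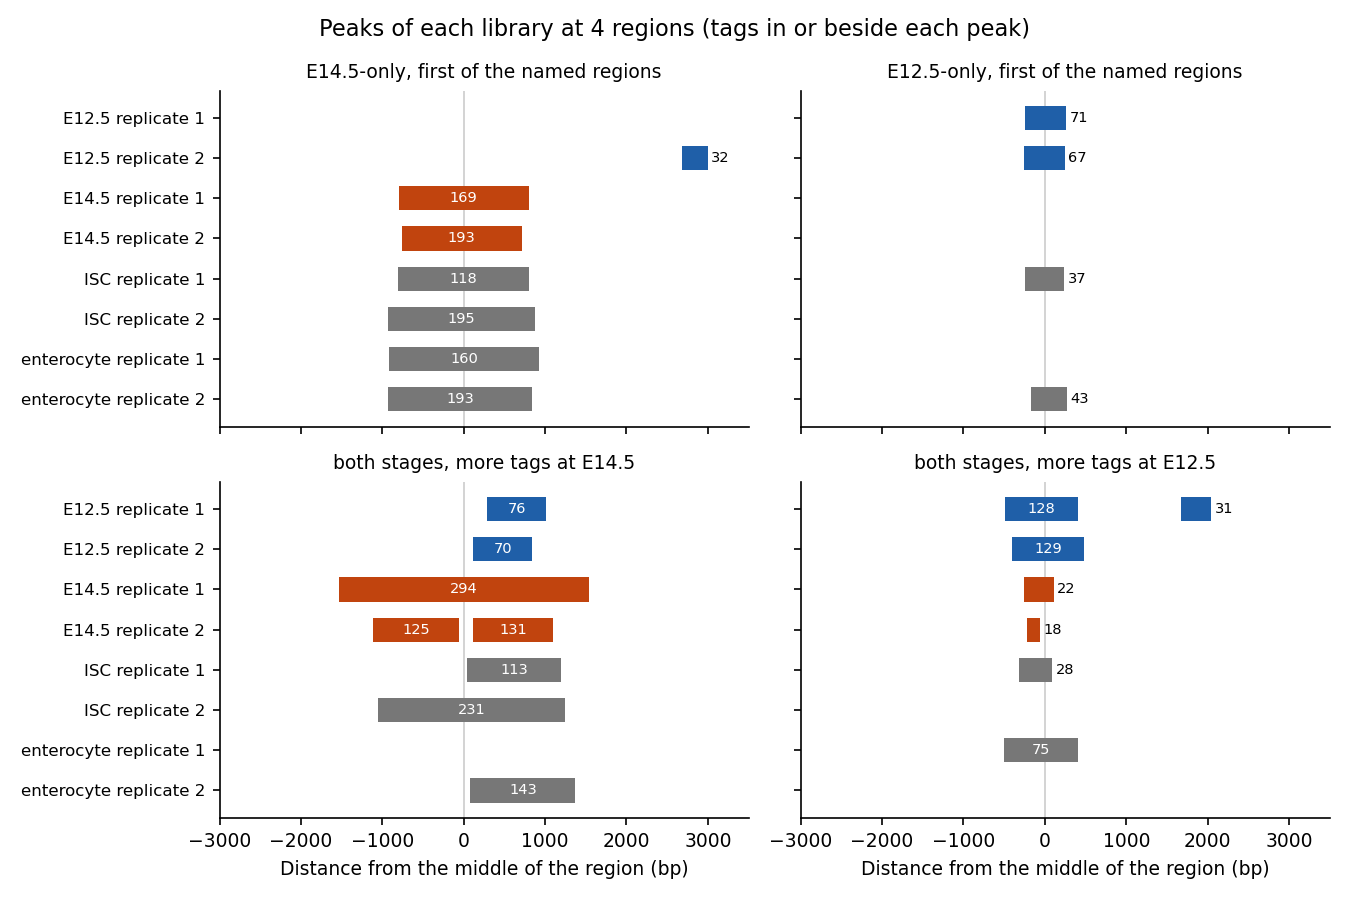
Full-list peaks of each of the 8 libraries (rows) at 4 regions, drawn as bars to scale by distance in bp from the middle of the region (x axis), with the tags of each peak; E12.5 is blue, E14.5 orange and adult grey. The E14.5-only region has 169 and 193 tags at E14.5 and peaks in all adult libraries, the E12.5-only region has 71 and 67 tags at E12.5 and 2 adult peaks, and the lower panels show shared regions whose peaks are longer at one stage.

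The strongest E12.5-only regions came from a smaller pool, because they had to be absent from the much longer full lists of E14.5. The 10 were drawn from 1070 regions, had lower percentiles of 89.7 to 99.6, against 97.3 to 99.6 for the E14.5-only regions, and held 49 to 86 tags in each E12.5 library. At chr4:20118658-20119181, with 71 and 67 tags at E12.5, the nearest E14.5 peak was 28175 bp away. ISC replicate 1 and enterocyte replicate 2 had peaks of 37 and 43 tags there, and the other 2 adult libraries had none. At chr14:83896092-83897028, with 69 and 73 tags, no adult library had a peak and the nearest E14.5 peak was 41118 bp away. These were the only 2 of the 10 with no E14.5 peak within 10 kb.

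For 6 of the 10, an E14.5 peak lay within 1 kb of the E12.5 region. These were chr12:113703742-113704597 (79 and 68 tags at E12.5, E14.5 peak at 706 bp), chr10:43958213-43958813 (57 and 71 tags, 546 bp), chr5:15113836-15114583 (60 and 58 tags, 885 bp), chr8:19962894-19963402 (51 and 49 tags, 391 bp), chr14:21164840-21165665 (70 and 53 tags, 424 bp) and chr1:87521358-87522006 (68 and 79 tags, 322 bp). The pair left, chr17:36621362-36622120 (72 and 83 tags) and chr7:88227918-88228822 (86 and 76 tags), had an E14.5 peak at 2666 and 2277 bp. Of all E12.5-only regions, 13.6% overlapped no E14.5 peak in the full lists. Those among them with an E14.5 peak within 1 kb were 6.08% of all E12.5-only regions. No E12.5-only region among the 10 was called in all 4 adult libraries, 1 was called in 3 and 5 were called in none. Of all E12.5-only regions, 28.6% were in all 4 full adult lists and 14.9% in none. Of the 1119 that had no E14.5 peak in the full lists, 43.0% were in none. The tags and adult calls of the 10 E12.5-only and the 10 E14.5-only regions are not compared, because the pools were filtered unequally.

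Over all members, the 2 classes differed in how near the other stage was. Of the E12.5-only regions, 86.4% overlapped a peak of an E14.5 library in the full lists and 54.4% overlapped one in both, so most were called at E14.5 below the cut. Within 1 kb of an E14.5 peak were 92.5%, and 35 regions lay more than 10 kb from one. Of the E14.5-only regions, 7.57% overlapped an E12.5 peak in the full lists and 22.4% lay within 1 kb of one. The median distance was 4182 bp, and 2760 regions (22.1%) were more than 10 kb away. The cut kept 84.7% and 100% of the peaks of the E12.5 libraries but 26.7% and 25.1% of those of the E14.5 libraries, so the full lists offered far more E14.5 peaks to meet. When the classes themselves were made from full lists, where no member overlaps the other stage, 44.9% of E12.5-only and 17.5% of E14.5-only regions lay within 1 kb of it. With E12.5 replicate 1 or replicate 2 left out of the choice of regions, the E14.5-only share within 1 kb was 55.6% or 52.3%. The distance was still taken to both E12.5 libraries, so newly admitted regions could overlap peaks of the one left out. These 2 values therefore do not give the share without that library. With no peak of the other stage in the full lists either, 11568 E14.5-only and 1119 E12.5-only regions remained.

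Stage-only regions were spread over all autosomes. The share of E14.5 regions that were E14.5-only ranged from 24.3% on chromosome 10 to 29.6% on chromosome 3. The share of E12.5 regions that were E12.5-only ranged from 22.4% on chromosome 12 to 27.0% on chromosome 16. In the last megabase with peaks of the 19 autosomes, 86 of 258 E14.5 regions (33.3%) and 44 of 166 E12.5 regions (26.5%) were stage-only. In the first megabase they were 87 of 320 (27.2%) and 52 of 227 (22.9%).

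How close members of a class lay to each other depended on the lists. In lists of equal length, of the E14.5-only regions, 11.7% had another within 10 kb, and of the E12.5-only regions, 11.1%. For all regions called in both libraries of a stage, a larger and so denser set, the shares were 41.5% and 37.4%. With full lists the shares were 72.3% of the 119340 E14.5-only and 3.61% of the 1386 E12.5-only regions. With 1 library left out they were 19.2% to 31.9% and 15.4% to 38.0%, in larger classes. Over 2407 windows of 1 Mb, the median was 5 E14.5-only and 3 E12.5-only regions. The fullest E14.5-only windows held 19 regions, at chr11:88000001-89000000 and chr15:88000001-89000000, where 36 and 47 regions were called at E14.5. The next, chr4:130000001-131000000, held 17 of 41. The fullest E12.5-only window, chr1:137000001-138000000, held 17 of the 29 regions called at E12.5. It was followed by chr10:116000001-117000000 and chr17:80000001-81000000 with 15 each, of 42 and 39. These windows were not particular to one class. Those on chromosomes 11, 15 and 4 also held 11, 7 and 5 E12.5-only regions. Those on chromosomes 1, 10 and 17 also held 8, 11 and 11 E14.5-only regions. The 95th percentile over windows was 11 E14.5-only and 9 E12.5-only regions. Each named window held 138 to 157 regions of any kind.

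Long stretches of one class were short in number. The longest run of E14.5 regions without an E12.5 peak held 10 regions, over 1057 kb at chr13:4397350-5454539, with 33 to 106 tags in E14.5 replicate 1 and 29 to 83 in replicate 2. In the full lists E12.5 replicate 1 had a peak of 29 tags at 1 of the 10, and E12.5 replicate 2 had none. Adult libraries had a peak at 7 to 10 of them, while each full adult list held 78.8% to 94.3% of all E14.5-only regions. The longest run of E12.5-only regions held 9, over 565 kb at chr1:140183835-140748545, with 32 to 75 and 26 to 94 tags at E12.5. In the full lists the E14.5 libraries had peaks at 7 and 5 of the 9 and the adult libraries at 3 to 7. Of all E12.5-only regions, 74.5% and 66.4% overlapped a full-list peak of E14.5 replicates 1 and 2. Each full adult list held 53.7% to 67.3% of them.

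The adult lists, which took no part in choosing the regions, held E14.5-only regions more often than E12.5-only regions. With adult lists of the same length, 51.0% and 60.1% of the E14.5-only regions had a peak in ISC replicates 1 and 2, and 56.9% and 59.4% in enterocyte replicates 1 and 2. For E12.5-only regions the values were 23.8%, 21.0%, 29.1% and 23.1%. The E14.5-only class was higher in 4 of 4 adult libraries. A peak in both ISC libraries was found at 37.6% of E14.5-only regions (95% Wilson interval 36.7 to 38.4) and 10.3% of E12.5-only regions (9.67 to 10.99). For both enterocyte libraries the shares were 44.0% (43.1 to 44.8) and 14.4% (13.6 to 15.2). Among all regions called in both libraries of a stage, the ISC shares were 57.9% for E14.5 and 49.7% for E12.5, and the enterocyte shares 62.9% and 54.5%. Both stage-only classes thus lay below the share of their own stage, and the shares of the stages already differed. The intervals cover counting error only, and no test over samples was made.

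The difference was also present with full adult lists. There, 75.9% of E14.5-only and 44.1% of E12.5-only regions were called in both ISC libraries, and 77.0% and 42.3% in both enterocyte libraries. All 4 adult lists held 62.9% of E14.5-only and 28.6% of E12.5-only regions, while 1.39% and 14.9% were in no adult list. Regions that lacked the other stage in the full lists too are given as a description only. That filter was unequal, since E12.5-only regions had to be absent from lists of 317772 and 338262 peaks and E14.5-only regions from lists of 100314 and 84990. Of the 1119 such E12.5-only regions, 481 (43.0%) had no adult peak in any full list, against 164 (1.42%) of the 11568 such E14.5-only regions. Regions called at both embryonic stages were called in both ISC libraries at 75.4% and in both enterocyte libraries at 79.3% with equal lists. That class was chosen for peaks in 4 libraries and the others for peaks in 2, so its place above them is partly set by the choice.

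**Figure D4:**
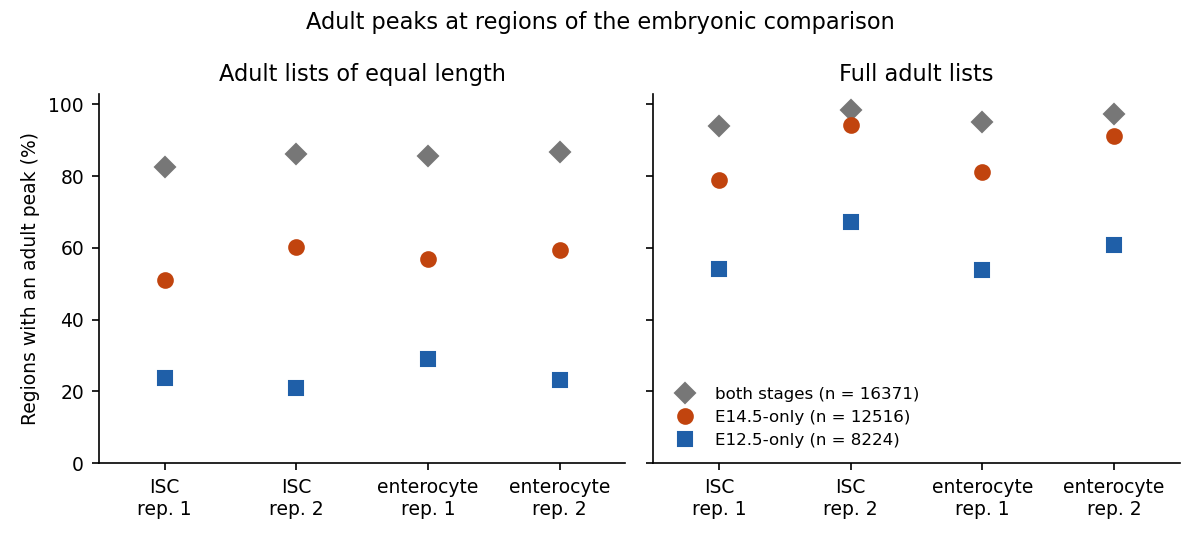
Percent of regions with a peak (y axis) in each of the 4 adult libraries (x axis), for shared (diamonds), E14.5-only (circles) and E12.5-only regions (squares), with adult lists of equal length on the left and full adult lists on the right. E14.5-only regions lie above E12.5-only regions in every adult library, at 51.0% to 60.1% against 21.0% to 29.1% with equal lists.

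Strong and weak members differed in the same direction. In the strongest of the 10 classes of E14.5 regions, 85.4% of the E14.5-only ones were called in both ISC libraries, and in the weakest 23.7%. For E12.5-only regions the values were 26.7% and 7.35%. The enterocyte libraries gave 89.1% and 29.1% for E14.5-only and 27.4% and 11.2% for E12.5-only regions. The share of tags in peaks moved with these values, since the adult libraries, at 23.8% to 38.9%, were near the E14.5 level and above the E12.5 level. Its part in the difference was not tested. With 1 library of each stage, E14.5-only regions were called in both ISC libraries at 25.8% to 31.7% and E12.5-only regions at 8.75% to 13.7% over the 4 pairs. Without E14.5 replicate 1 alone, which left 1 call at E14.5 against 2 at E12.5, the order turned, at 20.5% for E14.5-only against 24.0% for E12.5-only regions in ISC and 24.9% against 30.1% in enterocytes.

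Regions called at both stages were used to ask whether the amount of signal changed where no peak was gained or lost. In the full lists, 31500 autosomal regions had a peak in all 4 libraries, with median tags of 56 and 50 at E12.5 and of 62 and 49 at E14.5. After TMM scaling on these tags, edgeR's quasi-likelihood test found 0 regions higher at E14.5 (0% called) and 3 higher at E12.5 (0.00952% called) at an adjusted p under 0.05. At an unadjusted p under 0.05 the counts were 1920 and 2499. DESeq2 called 58 and 12, with an adjusted p for 9514 of the regions. Leaving out any 1 of the 4 libraries raised edgeR's counts, to 62 to 436 higher at E14.5 and 100 to 1453 higher at E12.5, the last without E14.5 replicate 1. The middle 50% of log2 changes lay between -0.33 and 0.29, and 588 regions were over 2-fold higher at E14.5 and 756 over 2-fold higher at E12.5. Across regions the log2 difference between replicates had an SD of 0.48 at E12.5 and 0.53 at E14.5. The difference between stage means had an SD of 0.49, above the 0.36 that means of 2 libraries would have from the replicate spread alone. The result is relative to the tags in these regions. Scaled to all tags of a library, the median region was higher at E14.5 by 0.67 on the log2 scale, and edgeR called 1759 regions higher at E14.5 and 5 higher at E12.5.

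The change in tags went with the change in peak length. Tags were counted by the authors between the borders of each library's own peak, and across these regions the log2 change in tags and in bp under peaks had a Pearson correlation of 0.935. Both measures come from the same peaks, and regions are not independent replicates. With peak length as an offset, edgeR called 0 regions in either direction (15 and 3 at an unadjusted p under 0.05, lowest adjusted p 1.00), and 4 of the 31500 regions were over 2-fold apart. In these lists, shared regions with more tags at a stage also tended to have longer peaks there. The caller sets peak borders from the same tags, so the offset can remove a real change in signal. The 0 calls therefore cannot tell a longer peak from a stronger signal.

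**Figure D5:**
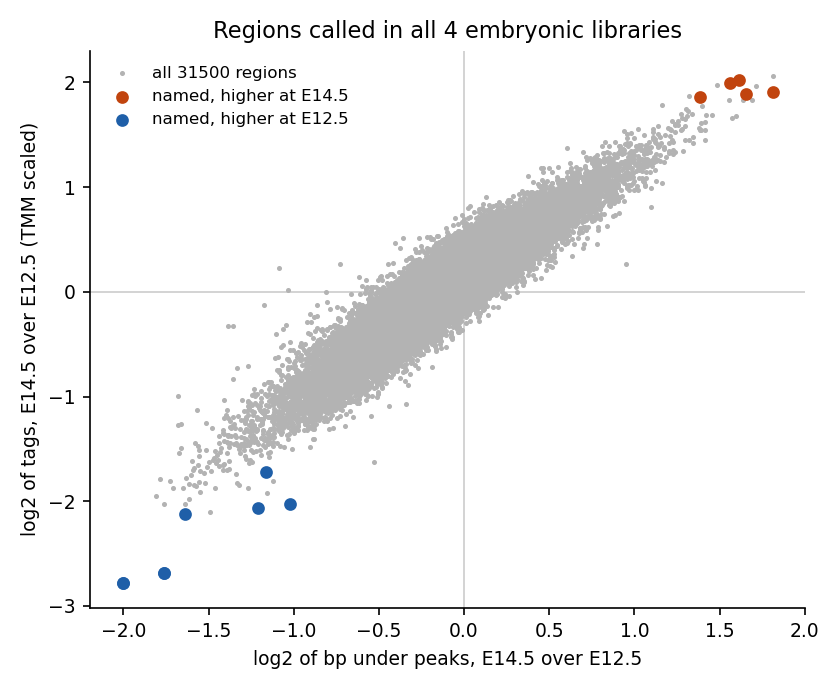
Each point is 1 of the 31500 regions called in all 4 embryonic libraries, with the log2 ratio of bp under peaks (x axis) and the log2 ratio of tags after TMM scaling (y axis), E14.5 over E12.5; the named regions are coloured. The points lie along a rising line (Pearson correlation 0.935), and the named regions lie at its ends.

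The 3 regions called higher at E12.5 were picked by the test on these same tags, so that their tags separate the stages is no further support. At chr11:88828839-88829811 the E12.5 libraries held 128 and 129 tags in peaks of 888 and 895 bp, and the E14.5 libraries 22 and 18 tags in 366 and 159 bp. The log2 change was -2.69 (SE 0.34, edgeR adjusted p = 0.0394). At chr5:14979435-14980686 the tags were 106 and 138 at E12.5 and 21 and 15 at E14.5 (log2 change -2.78, SE 0.37, edgeR adjusted p = 0.0394), and no adult library had a peak there. The third, chr4:3006144-3013556, is a pile-up near the start of the chromosome, with 1523 and 1279 tags at E12.5 and 435 and 411 at E14.5 (log2 change -1.72, SE 0.23, edgeR adjusted p = 0.0394). No input library was used in the calling, so pile-ups were not removed by it. With the length offset the adjusted p was 1.00 for each of the 3.

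Because no region passed the test in both fits, the 5 regions with the lowest p in each direction outside pile-ups are given, a choice made after their values were seen. All 5 regions higher at E14.5 missed the threshold (edgeR adjusted p = 0.0651) and were broad peaks at E14.5. At chr4:148310371-148313444 the E12.5 libraries held 76 and 70 tags in 735 and 722 bp, and the E14.5 libraries 294 and 256 tags in 3074 and 2042 bp. At chr11:105025727-105028389 the E12.5 libraries held 64 and 75 tags and the E14.5 libraries 271 and 285. The E12.5 and E14.5 values did not overlap in any of the 5, which choosing by the lowest p on these tags brings about.

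The other broad E14.5 regions had similar profiles. At chr13:45661752-45663832 the tags were 42 and 48 at E12.5 and 195 and 175 at E14.5. At chr12:106018785-106021247 they were 61 and 59 against 241 and 206, and at chr4:83937334-83940008 they were 82 and 62 against 263 and 257. Adult peaks were long at 4 of the 5 regions, with 1604 to 3755 bp in each adult library. The region at chr4:148310371 differed, with no peak in enterocyte replicate 1 and 1149 to 2293 bp in the others.

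On the E12.5 side, 2 of the 5 were the chromosome 11 and chromosome 5 regions above, and the other 3 missed the threshold (edgeR adjusted p = 0.0651). At chr4:146793946-146795364 the tags were 191 and 202 at E12.5 and 50 and 41 at E14.5. Adult libraries were uneven there, with 447 tags in enterocyte replicate 1, 48 in ISC replicate 2 and no peak in the other 2. On chromosome 8, the regions 19931387-19932587 (219 and 204 tags at E12.5, 63 and 42 at E14.5) and 19944197-19945723 (258 and 166, 57 and 44) were 11.6 kb apart. The E12.5-only region at chr8:19962894-19963402 lay 17.2 kb beyond the second of them. On chromosome 5, the E12.5-only region at 15113836 lay 133 kb from the called region at 14979435.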

How the data were processed

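The submitters' processing notes name build mm9, Bowtie 1.1.2, SAMtools 1.2 and bcl2fastq 1.8.4. Per the file headers, the authors called peaks with MACS 1.4.2 in each library alone without a control library, at p = 1e-05, from duplicate-removed reads. Each deposited peak has a raw tag count, a score (the caller's p-value on a scaled negative log10 axis) and a fold, the ratio of its tags to those around it by the caller's model. The authors' fold was used only to rank peaks in an alternative.

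Lists were cut to 84990 peaks, limited to autosomes and merged at 1 bp overlap. Presence was counted with no test. Tags summed per region called in all 4 libraries were tested with edgeR 4.0.16, Benjamini-Hochberg adjusted, SE being the log2 change over the root of its F. DESeq2 1.42.0 and limma 3.58.1 were alternatives. The code was tested on simulated data. Same-numbered replicates are not paired by the labels. The named regions left out chromosome 18. The rule for regions changed in tags, which asked for calls with and without the length offset, found none. Gene lists in the design were not analysed, because the gene table is on another build. Members, lists and tests were chosen with earlier results of these data known.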

Additional observations from a re-analysis of the deposited data

How the results depend on the processing

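The larger number of E14.5-only regions held with full lists, half-length lists, ranking by fold, autosomes taken first, merging within 500 bp, 50% coverage, summit intervals and regions from all 8 libraries. The counts E14.5-only and E12.5-only moved beyond 1.5 times with full lists (119340 and 1386) and half-length lists (6316 and 4254), and with ranking by fold for E12.5-only (14609). The E14.5 share moved to 98.9% with full lists, 51.8% by fold, 59.4% within 500 bp, 56.0% at 50% coverage and 63.2% with summits. It turned below 50% without E12.5 replicate 1 (35.7%) and replicate 2 (35.4%), where fewer calls were required at E12.5 than at E14.5. In 3 of the 4 pairs with 1 library per stage it was 49.8%, 49.6% and 49.8%. Lists of one length fix that value near balance, so it is no reversal. Leaving out replicates gave 20387 to 51731 E14.5-only and 11529 to 52149 E12.5-only regions, and a share of 35.4% to 73.2%.

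For E14.5-only regions the share called in both ISC libraries was 75.9% with full adult lists, 9.52% with regions from full lists, 51.0% and 60.1% in each ISC library alone, and 20.5% to 46.1% with replicates left out. For E12.5-only regions it was 44.1%, 1.37%, 23.8%, 21.0% and 5.27% to 24.0%. In enterocytes the values were 77.0%, 12.52%, 56.9%, 59.4% and 24.9% to 52.4% for E14.5-only, and 42.3%, 3.17%, 29.1%, 23.1% and 8.07% to 30.1% for E12.5-only regions.

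Median width was 345 to 617 bp (E14.5-only) and 465 to 691 bp (E12.5-only) with replicates left out. With full lists it was 446 bp for E14.5-only and 579.5 bp for E12.5-only regions. The other stage lay within 1 kb for 17.5% (full lists), 15.2% (within 500 bp) and 20.9% to 55.6% (replicates left out) of E14.5-only regions, and for 44.9% (full lists) and 84.8% to 95.6% of E12.5-only regions. Another of the class lay within 10 kb for 72.3%, 10.3% and 19.2% to 31.9%, and for 3.61%, 9.76% and 15.4% to 38.0%, in the same order of settings. Distances to the other stage were always taken to both of its libraries, so a library left out still counted there. Other than this and list length, which full lists change by construction, the cause of these moves was not tested.

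For tags at shared regions, calls higher at E14.5 and at E12.5 were 1759 and 5 with header totals, 58 and 12 with DESeq2, 5 and 5 with equal lists, 3104 and 10 with limma on tags scaled to header totals, and 0 at E12.5 with the length offset. With the replicate block they were 386 and 496. Deviations of same-numbered libraries had a correlation of 0.025 across regions. With 2 libraries per stage this cannot tell whether same-numbered libraries were handled together. Leaving out a library gave 62 to 436 and 100 to 1453 calls, with the lone library assumed to vary like the other stage. Depth limits absence, since a region below the caller's cutoff can still hold tags.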
